A study of Mus musculus with 6 samples.

Results

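The 10 genes described here encode the receptor for interleukin-2 and the signalling route behind it: the receptor chains Il2ra, Il2rb and Il2rg, the kinases Jak1 and Jak3, the transcription factors Stat5a and Stat5b, and the feedback inhibitors Socs1, Socs3 and Cish. They were taken by their Ensembl gene identifiers from the 54446 gene identifiers in each count file, and all 10 were found and were among the 15615 genes with enough reads to be tested. The symbols come from that list of identifiers, since the count files carry none. The libraries are RNA immunoprecipitation sequencing (RIP-seq) libraries of regulatory T (Treg) cells from tumours of the mouse melanoma line B16F10. They comprise 3 libraries of RNA precipitated with an antibody to YTHDF2 (IP) and 3 libraries of unprecipitated lysate RNA (Input), in replicates numbered 1 to 3 in each. All 6 libraries have the genotype label WT, and the cells were sorted as live CD45+ CD4+ Foxp3-GFP+ cells from subcutaneous tumours. The Input was 10% of the lysate, and the IP was incubated for 4 hours and washed 6 times. Neither the age of the animals nor whether replicates are separate animals or pools is stated in the labels, so every p-value below reflects variation among these 6 libraries alone, and that variation may be technical. No precipitation with a control antibody, and none from YTHDF2-deficient cells, was analysed here, so recovery in the IP is always relative to the Input.

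Interleukin-2 is the growth and survival factor on which Treg cells depend, and they carry its high-affinity receptor at all times. The alpha chain raises affinity for the cytokine, while the beta and common gamma chains carry the signal through the kinases JAK1 and JAK3, bound to beta and gamma. The kinases phosphorylate STAT5A and STAT5B, which enter the nucleus and switch on target genes, among them the inhibitors that shut the route down again. YTHDF2 is a cytoplasmic reader of N6-methyladenosine (m6A) in mRNA that hastens decay of the transcripts it binds, and in mouse T cells the mRNAs of SOCS family inhibitors are known as m6A targets.

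Of the 10 genes, 2 were depleted in the IP, none was enriched, and 8 did not pass the test. The depleted genes were Il2rb and Il2rg, the chains that carry the signal. A gene was called when edgeR's quasi-likelihood test, adjusted by Benjamini-Hochberg over all 15615 genes, gave an adjusted p under 0.05; enriched means higher in the IP than in the Input and depleted means lower. At an unadjusted p under 0.05 the counts were also 0 enriched and 2 depleted, and the 16 alternative settings gave 0 enriched genes among the 10 in each. Over all tested genes 4.33% were enriched and 6.11% depleted. Among the 3904 genes in the 25% of highest mean level, from 49.9 CPM upwards, the shares were 14.7% and 16.9%. CPM are counts per 1000000 reads on the tested genes. That group holds 9 of the 10 genes, all except Socs1, so 2 depleted genes of 10 is close to what genes with this many reads showed in general. As a median, the log2 fold change (IP over Input) was -0.17 for the 10 genes, -0.12 for all tested genes and 0.10 for those 3904 genes.

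The libraries held 6847731 to 8465453 gene-assigned reads in the IP and 10029733 to 14704617 in the Input. The 10 genes together took 0.307% to 0.357% of these in the IP and 0.341% to 0.391% in the Input. Reads in no annotated feature were 71.2% to 72.1% of an IP file and 49.6% to 51.6% of an Input file. The part of that difference in the results below was not tested. The lowest count of any of the 10 genes was 157 reads, where counting error alone is 7.98%, and the highest was 13213. Levels are given as CPM with library sizes scaled by TMM factors, and they are not divided by transcript length, so levels are set against each other only within a gene. Of the defining Treg markers, Il2ra (CD25) is the one whose identifier is known here, and it was abundant in every library; Foxp3 and the markers of other cells could not be tied to identifiers and were not checked. In such bulk libraries, fewer cells of a type and less RNA per cell cannot be told apart.

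Il2ra (ENSMUSG00000026770) encodes the alpha chain, CD25, and spans chr2:11642792-11693194 of GRCm38.p6, the NCBI form of mm10. It had 904.5, 718.0 and 658.6 CPM in IP replicates 1, 2 and 3, against 893.2, 784.5 and 836.1 CPM in the Input replicates. The groups overlapped, as IP replicate 1 was the highest of all 6 libraries and IP replicate 3 the lowest. Il2ra had a log2 fold change of -0.14 ± 0.15 (SE), with a 95% interval of -0.48 to 0.20 and an edgeR adjusted p of 0.680. Of all tested genes, 49.3% had a lower log2 fold change than Il2ra, and of the 3904 genes of highest mean level 39.5% did.

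Il2rb (ENSMUSG00000068227) encodes the beta chain, CD122, which is shared with the interleukin-15 receptor, and spans chr15:78479256-78511621. It had 559.2, 729.7 and 512.8 CPM in the IP replicates, against 911.9, 1233 and 1145 CPM in the Input replicates. Every IP library lay below every Input library. Its mean was 601 ± 114 CPM in the IP and 1097 ± 166 CPM in the Input (SD, n = 3 each), a level 1.83-fold lower in the IP. This is a log2 fold change of -0.87 ± 0.17 (SE), with a 95% interval of -1.26 to -0.48 and an edgeR adjusted p of 0.0128. The adjusted p was 0.0578 without IP replicate 1, which left the log2 fold change at -0.86, and the call held in the other 15 alternatives.

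Il2rg (ENSMUSG00000031304) encodes the common gamma chain, used also by the receptors for interleukins 4, 7, 9, 15 and 21, and spans chrX:101264385-101268255. It had 94.6, 123.3 and 88.6 CPM in the IP replicates, against 153.8, 221.1 and 222.1 CPM in the Input replicates. Again no IP library reached any Input library. The mean was 102 ± 18.5 CPM in the IP and 199 ± 39.2 CPM in the Input (SD, n = 3 each), a level 1.95-fold lower in the IP. The log2 fold change was -0.96 ± 0.23 (SE), with a 95% interval of -1.47 to -0.45 and an edgeR adjusted p of 0.0256. This call is less firm than that of Il2rb, as it was lost in 4 of 16 alternatives: the adjusted p was 0.0588 with upper quartile factors, 0.0778 without IP replicate 1, 0.0758 without Input replicate 2 and 0.0862 without Input replicate 3. The log2 fold change stayed between -1.49 and -0.77 in all 16. Among all tested genes, 27.2% had a lower log2 fold change than Il2rg and 29.3% than Il2rb, so both lie below the median transcript. Among the 3904 genes of highest mean level, 17.5% were lower than Il2rg and 19.1% lower than Il2rb.

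**Figure D1:**
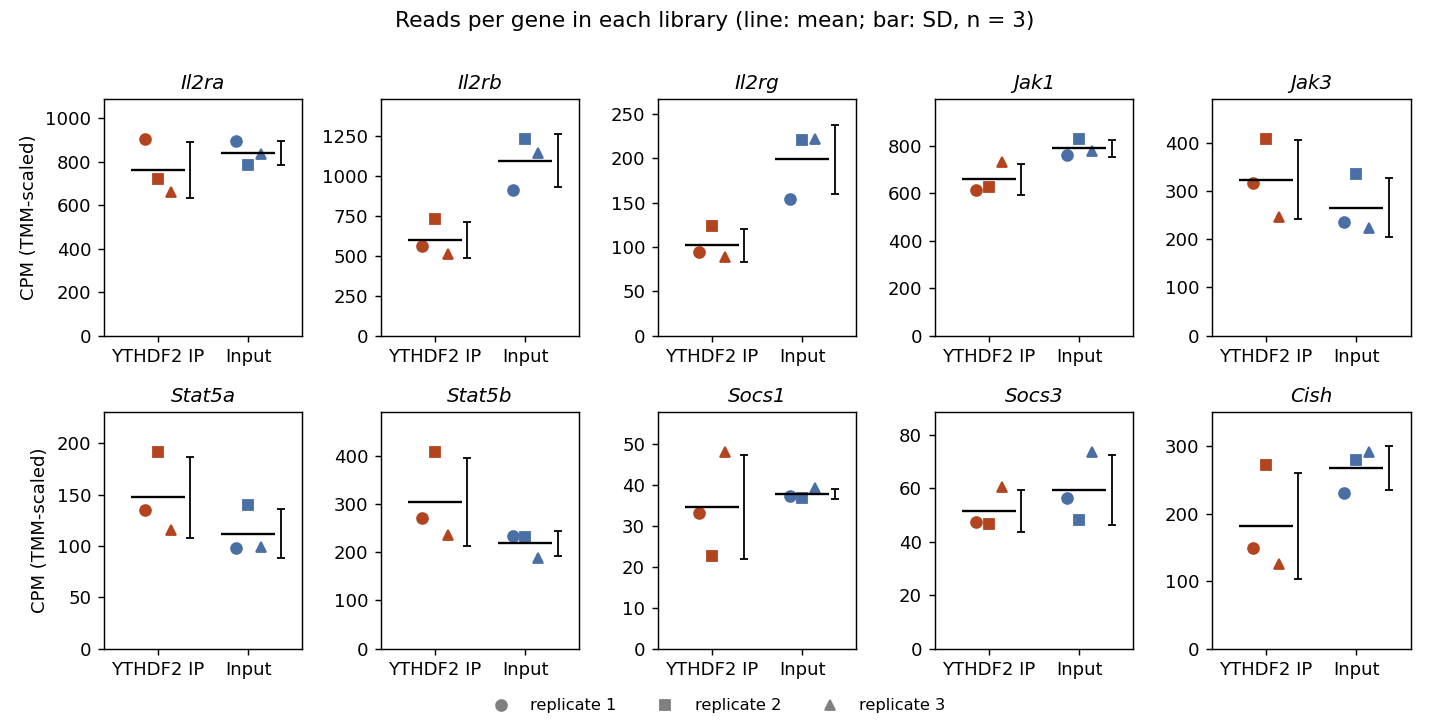
Reads per gene in CPM with TMM-scaled library sizes (y axis, from 0) for each of the 10 genes in the 3 YTHDF2 IP libraries (left of each panel) and the 3 Input libraries (right), with a line at the mean and a bar for the SD (n = 3). The IP libraries of Il2rb (512.8 to 729.7 CPM) and Il2rg (88.6 to 123.3 CPM) sit below every Input library of the same gene, while the groups overlap for Il2ra, Jak3, Stat5a, Socs1, Socs3 and Cish.

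Because the chains of one receptor are measured in the same libraries, their count ratio within a library needs no library size, and its change between IP and Input needs no gene length. Ratios were formed for 8 pairs of genes with the same role, and the mean log2 ratios of the groups were compared by an exact two-sided permutation test, whose smallest p for 3 against 3 libraries is 0.1. Il2ra had 1.62, 0.984 and 1.28 reads per read of Il2rb in the IP replicates, against 0.980, 0.636 and 0.730 in the Input replicates. The log2 ratio was higher in the IP by 0.72 ± 0.28 (SE of the difference), which is 1.65-fold, with exact p = 0.1 and 0.4 after adjustment over the 8 pairs. Against Il2rg, Il2ra had 9.56, 5.83 and 7.43 reads per read in the IP and 5.81, 3.55 and 3.76 in the Input. That log2 ratio was higher in the IP by 0.80 ± 0.30 (SE of the difference), again with exact p = 0.1 and an adjusted value of 0.4. In both pairs the IP ratios lay above all Input ratios, but the closest libraries, IP replicate 2 and Input replicate 1, nearly touched. The Il2rb to Il2rg ratio was 5.91, 5.92 and 5.79 in the IP and 5.93, 5.58 and 5.15 in the Input, a difference of 0.08 ± 0.06 in log2 units (SE of the difference) with exact p = 0.4. The reads of the beta and gamma chains thus stood in a ratio of 5.15 to 5.93 in all 6 libraries, while the ratio of the alpha chain to each of them differed more between libraries.

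Jak1 (ENSMUSG00000028530) encodes the kinase that binds the beta chain and spans chr4:101151974-101265282. It had 615.6, 628.0 and 732.6 CPM in the IP replicates, against 761.4, 830.1 and 776.9 CPM in the Input replicates. The IP libraries were all lower, IP replicate 3 by a small margin, yet the gene did not pass the test: the log2 fold change was -0.26 ± 0.13 (SE), with a 95% interval of -0.55 to 0.03 and an edgeR adjusted p of 0.267. A decrease larger than 1.47-fold lies outside that interval. Of all tested genes, 23.7% had every IP library below every Input library, and Jak1, Il2rb and Il2rg were the 3 of the 10 genes that did.

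Jak3 (ENSMUSG00000031805) encodes the kinase that binds the common gamma chain and is found mainly in blood cells; it spans chr8:71676383-71690577. It had 316.2, 407.8 and 246.5 CPM in the IP replicates, against 236.1, 335.2 and 223.0 CPM in the Input replicates. Replicate 2 was the highest library in each group, and the groups overlapped. For Jak3 the log2 fold change was 0.29 ± 0.23 (SE), with a 95% interval of -0.23 to 0.81 and an edgeR adjusted p of 0.545. Jak1 had 1.95, 1.54 and 2.97 reads per read of Jak3 in the IP and 3.23, 2.48 and 3.48 in the Input. The log2 ratio of Jak1 to Jak3 was lower in the IP by a mean difference of -0.55 ± 0.31 (SE of the difference), with overlapping groups and exact p = 0.2, or 0.533 after adjustment over the 8 pairs. The annotated span of Jak3 overlaps that of Insl3 the span of Jak1 overlaps Raver2 and 3 other annotated genes and that of Il2ra 1 annotated gene, so reads in shared stretches could be left out or assigned to the neighbour. Ambiguous reads were 0.396% to 0.418% of an IP file and 1.21% to 1.25% of an Input file.

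Stat5a (ENSMUSG00000004043) and Stat5b (ENSMUSG00000020919) encode closely related STAT5 proteins with overlapping functions. They lie side by side on chromosome 11, with Stat5b at chr11:100780731-100859004 and Stat5a at chr11:100859351-100885169, 346 bases apart. Stat5a had 134.7, 191.8 and 115.7 CPM in the IP replicates, against 97.8, 139.8 and 98.6 CPM in the Input replicates. Stat5b had 270.9, 409.5 and 236.8 CPM in the IP replicates, against 234.1, 233.1 and 188.9 CPM in the Input replicates. For Stat5a the groups overlapped through Input replicate 2, and for Stat5b every IP library lay above every Input library, though IP replicate 3 exceeded Input replicate 1 only slightly. Over all tested genes 12.8% showed that separation.

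The log2 fold change was 0.39 ± 0.25 (SE) for Stat5a, with a 95% interval of -0.18 to 0.97 and an edgeR adjusted p of 0.421. For Stat5b it was 0.48 ± 0.22 (SE), with a 95% interval of -0.02 to 0.98 and an edgeR adjusted p of 0.227. These were the highest values of the 10 genes, and neither is a call. An enrichment larger than 1.98-fold lies outside the interval of Stat5b, and one larger than 1.95-fold outside that of Stat5a. Stat5a had 0.497, 0.468 and 0.488 reads per read of Stat5b in the IP and 0.418, 0.600 and 0.522 in the Input. The log2 ratio differed by -0.07 ± 0.15 (SE of the difference), exact p = 0.7, so no unequal recovery of the paralogs was detected at this spread. Their coding sequences are much alike, and reads that align to both genes equally well are not in these counts if, as HTSeq does by default, only unique alignments were counted. Reads without a unique alignment were 2.88% to 3.35% of an IP file and 9.18% to 9.65% of an Input file. How many of them came from Stat5a and Stat5b was not tested.

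**Figure D2:**
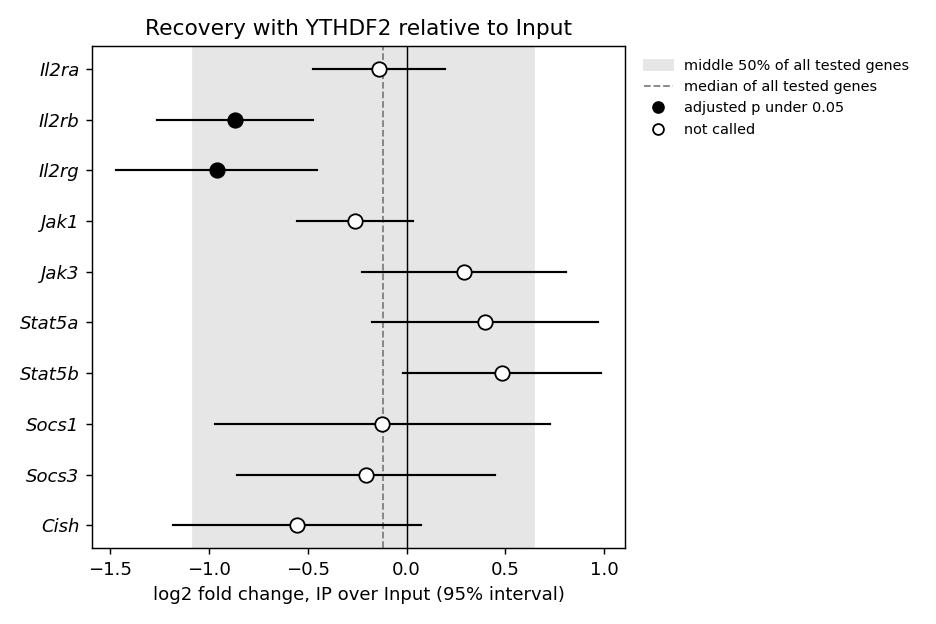
Log2 fold change of YTHDF2 IP over Input (x axis) with its 95% interval for each of the 10 genes, filled where the adjusted p was under 0.05; the grey band holds the middle 50% of all 15615 tested genes and the dashed line is their median, -0.12. All 10 points lie within the grey band, Il2rb and Il2rg near its lower edge, and Stat5b, at 0.48, highest of the 10.

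Socs1 (ENSMUSG00000038037) encodes an inhibitor that blocks JAK activity directly and spans chr16:10783808-10785536. It had 33.3, 22.8 and 48.2 CPM in the IP replicates, against 37.4, 36.8 and 39.3 CPM in the Input replicates. The Input libraries were almost equal, with a coefficient of variation of 3.46%, the lowest of the 10 genes, while the IP libraries varied by 36.8%. The highest and the lowest of all 6 libraries were both IP libraries. Socs1 had a log2 fold change of -0.12 ± 0.38 (SE), with a 95% interval of -0.97 to 0.73 and an edgeR adjusted p of 0.908. Enrichment of up to 1.66-fold lies inside that interval, so these libraries do not show whether Socs1 mRNA is recovered above or below its Input level.

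Socs3 (ENSMUSG00000053113) encodes an inhibitor that acts mainly on receptors of the interleukin-6 family and spans chr11:117966079-117970336. It had 47.3, 46.7 and 60.6 CPM in the IP replicates, against 56.5, 48.0 and 73.7 CPM in the Input replicates. The groups overlapped, and replicate 3 was the highest in each. Socs3 had a log2 fold change of -0.21 ± 0.29 (SE), with a 95% interval of -0.86 to 0.45 and an edgeR adjusted p of 0.773.

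Cish (ENSMUSG00000032578) encodes CIS, an inhibitor induced by STAT5 that competes at the activated receptor, and spans chr9:107296659-107302784. It had 149.3, 272.1 and 125.5 CPM in the IP replicates, against 231.0, 280.6 and 292.1 CPM in the Input replicates. IP replicates 1 and 3 were well below the Input and IP replicate 2 was inside its range, which gave Cish the highest coefficient of variation in the IP, 43.1%, against 12.1% in the Input. The log2 fold change was -0.56 ± 0.28 (SE), with a 95% interval of -1.18 to 0.07 and an edgeR adjusted p of 0.272. One library decided this value: without IP replicate 2 the log2 fold change was -0.997 and edgeR's adjusted p 0.0264, a call of depletion that the full set does not give with TMM factors.

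Each ratio among the 3 feedback genes overlapped between the groups. Socs1 had 0.703, 0.488 and 0.796 reads per read of Socs3 in the IP and 0.662, 0.767 and 0.533 in the Input, with no difference in the mean log2 ratio beyond the spread (0.00 ± 0.26, SE of the difference, exact p = 1). Socs1 had 0.223, 0.0838 and 0.384 reads per read of Cish in the IP, against 0.162, 0.131 and 0.135 in the Input. Within the IP this ratio was lowest in replicate 2 and highest in replicate 3, and its difference from the Input was 0.44 ± 0.65 (SE of the difference, exact p = 0.6). Socs3 per Cish gave 0.317, 0.172 and 0.482 in the IP and 0.245, 0.171 and 0.252 in the Input (0.44 ± 0.47, SE of the difference, exact p = 0.4). The smallest p that these 8 tests can give is 0.1, and the adjusted values ran from 0.4 to 1.

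STAT5 and STAT3 bind a DNA element that both strands spell alike, TTCNNNGAA. The promoter windows of RefSeq (GRCm38.p6) run from 250 bases before to 50 bases after a start. They show which of the 10 genes carry these letters next to the starts used there. The table held 11 windows for 9 of the genes, all but Il2rb. Of these windows 2 held the letters, those of Cish and Socs3, against 8.30% of the 32851 windows of all genes. Cish held them in 2 places, as did 0.457% of all windows. The stretches are shown because they hold letters of this form, and capitals mark the motif on the gene's strand. The Cish stretch is chr9:107296654-107296683 on the plus strand, with the matches starting at bases 1 and 12 of the annotated transcript, and the Socs3 stretch is chr11:117969501-117969530 on the minus strand. Its match begins 154 bases before the start that the promoter table uses, which lies inside the longer annotated span given above. The windows of Stat5a and Stat5b also lie inside their annotated spans, so the bases before the beginning of those spans were not searched.
Cish: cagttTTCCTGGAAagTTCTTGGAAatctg
Socs3: gaaaccagccTTCTTAGAAgggaggggggg
A match is a description of the letters, and these libraries measure RNA, not binding to DNA.

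**Figure D3:**
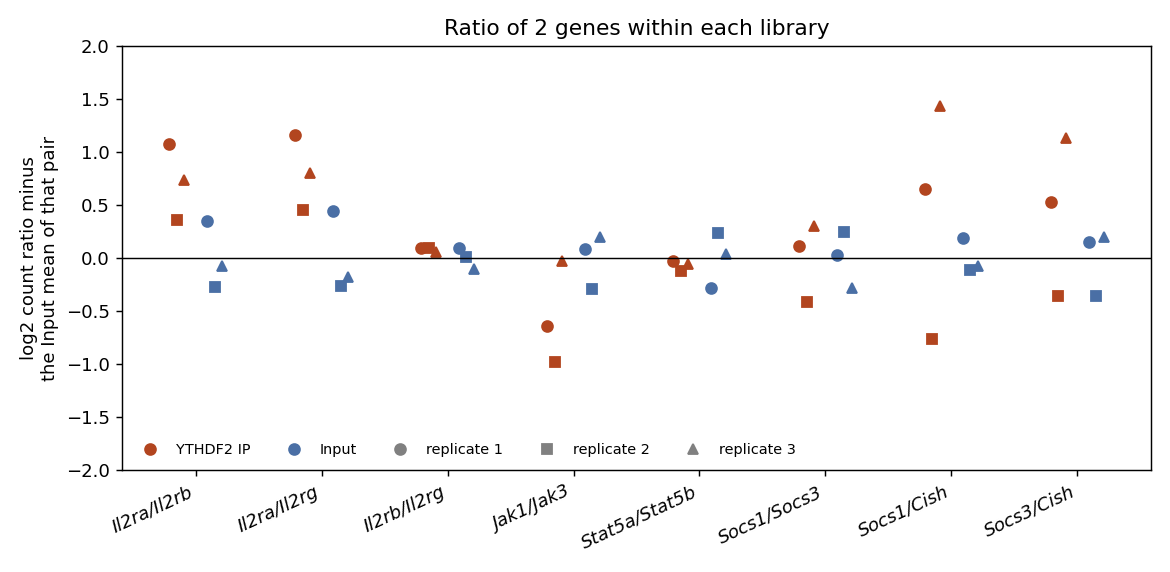
Log2 ratio of the counts of 2 genes of the same role within each library, minus the Input mean of that pair (y axis), for 8 pairs (x axis), with the YTHDF2 IP libraries left and the Input libraries right at each pair and a marker shape for each replicate number. The IP ratios of Il2ra to Il2rb and of Il2ra to Il2rg lie above the Input ratios, those of Il2rb to Il2rg stay within a narrow band, and those of Socs1 to Cish spread widest in the IP.

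How the reads of the 10 genes were divided within a library needs no library size, and is given as a description without a test. This division does not follow the fold changes for each gene. Il2ra, Jak1, Socs1 and Socs3 had higher mean shares in the IP than in the Input, but log2 fold changes below 0. For Il2ra the shares were 24.2% ± 4.42 in the IP and 21.7% ± 2.90 in the Input (SD, n = 3 each). The 3 receptor chains took 49.9%, 44.3% and 44.6% of the 10 genes' reads in the IP replicates, against 54.2%, 54.0% and 56.6% in the Input replicates. The STATs took 13.0%, 16.9% and 12.5% in the IP, against 9.19%, 9.002% and 7.38% in the Input, so the groups were apart here too. Stat5b alone had 9.53% ± 1.75 in the IP and 5.65% ± 0.816 in the Input (SD, n = 3 each), and Stat5a had 4.602% ± 0.702 and 2.87% ± 0.445. The kinases took 29.2% to 34.6% in the IP and 25.7% to 28.1% in the Input, of which Jak3 had 10.1% ± 1.38 and 6.78% ± 1.204 and Jak1 21.1% ± 4.29 and 20.4% ± 0.626. In IP replicate 3 Jak1 took 25.9%, its highest share, and Jak3 8.72%, its lowest in the IP. The feedback genes overlapped, at 7.35% to 9.62% in the IP and 8.82% to 10.4% in the Input. Shares within a closed total depend on each other, so the lower share of Il2rb, 18.9% ± 1.47 in the IP and 28.1% ± 2.51 in the Input (SD, n = 3 each), raises the shares of the other genes by construction.

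**Figure D4:**
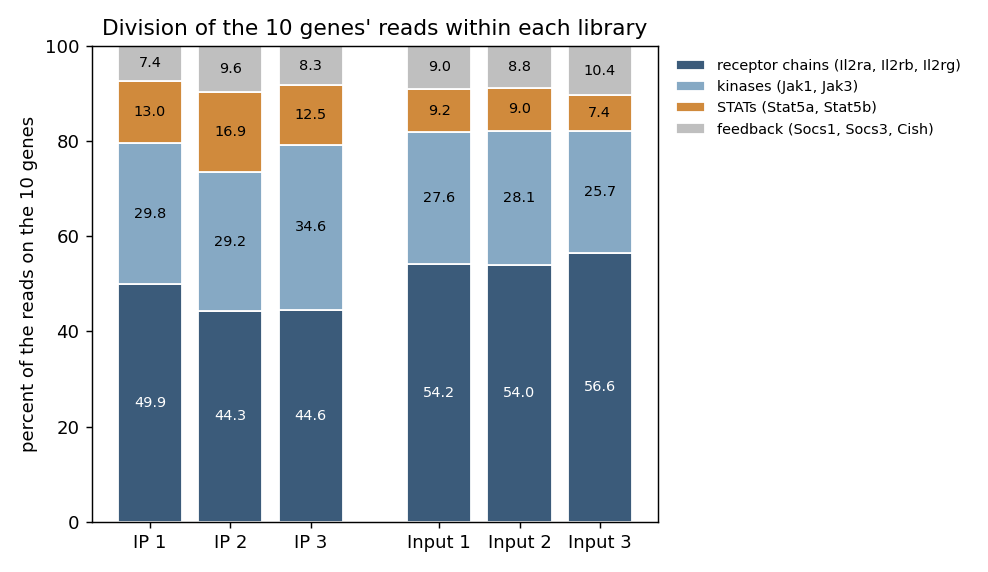
Percent of the reads on the 10 genes (y axis) that fell on receptor chains, kinases, STATs and feedback genes, 1 bar per library, with the 3 YTHDF2 IP libraries left and the 3 Input libraries right. Receptor chains take 44.3% to 49.9% in the IP and 54.0% to 56.6% in the Input, and STATs 12.5% to 16.9% and 7.38% to 9.19%.

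The spread between replicates differed by gene as well as by group. The coefficient of variation of the level was 9.76% to 43.1% in the IP and 3.46% to 23.2% in the Input, and it was higher in the IP for 8 of the 10 genes, all except Il2rg and Socs3. IP replicate 2 was the highest IP library for Il2rb, Il2rg, Jak3, Stat5a, Stat5b and Cish and the lowest for Socs1 and Socs3. Input replicate 2 was the highest Input library for Il2rb, Jak1, Jak3 and Stat5a, and the lowest for Il2ra, Socs1 and Socs3. IP replicate 3, which listed 14200 gene identifiers against 18501 and 19991 in the other IP libraries, was the highest IP library for Jak1, Socs1 and Socs3 and the lowest for the other 7 genes.

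The scaling of the libraries turned the sign of 6 of the 10 genes, Il2ra, Jak3, Stat5a, Stat5b, Socs1 and Socs3, none of them called, while Il2rb, Il2rg, Jak1 and Cish were below 0 in all 16 alternatives. Library sizes were also taken from all reads in a file, in place of reads on the tested genes with TMM factors. The log2 fold changes of Jak3, Stat5a and Stat5b were then -0.23, -0.13 and -0.04. Depleted genes then numbered 5, Il2ra, Il2rb, Il2rg, Jak1 and Cish. The median of all tested genes also moved, to -0.65 in place of -0.12. Set against that median, Il2rb lay at -0.75 with TMM factors and at -0.74 with all reads, Il2rg at -0.84 in both, and Stat5b at 0.60 in both. Over the 5 scalings, which share the test and the genes tested, Il2ra lay at -0.02 from the median. That distance depends on the test and on the genes that set the median. With limma voom it was -0.29 for Il2rb, -0.37 for Il2rg and 0.41 for Il2ra. With no count filter, over 40072 genes with a median of -1.32, it was 0.37, 0.28 and 1.10 for the same genes. Jak3, Stat5a and Stat5b lay above the median in all 16 alternatives, by at least 0.24, 0.34 and 0.43, but none of them was called in any. Every other of the 10 genes changed its side of the median between settings. For Il2rb, Il2rg and Cish this happened only with no count filter, and they lay below the median in every other alternative.

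**Figure D5:**
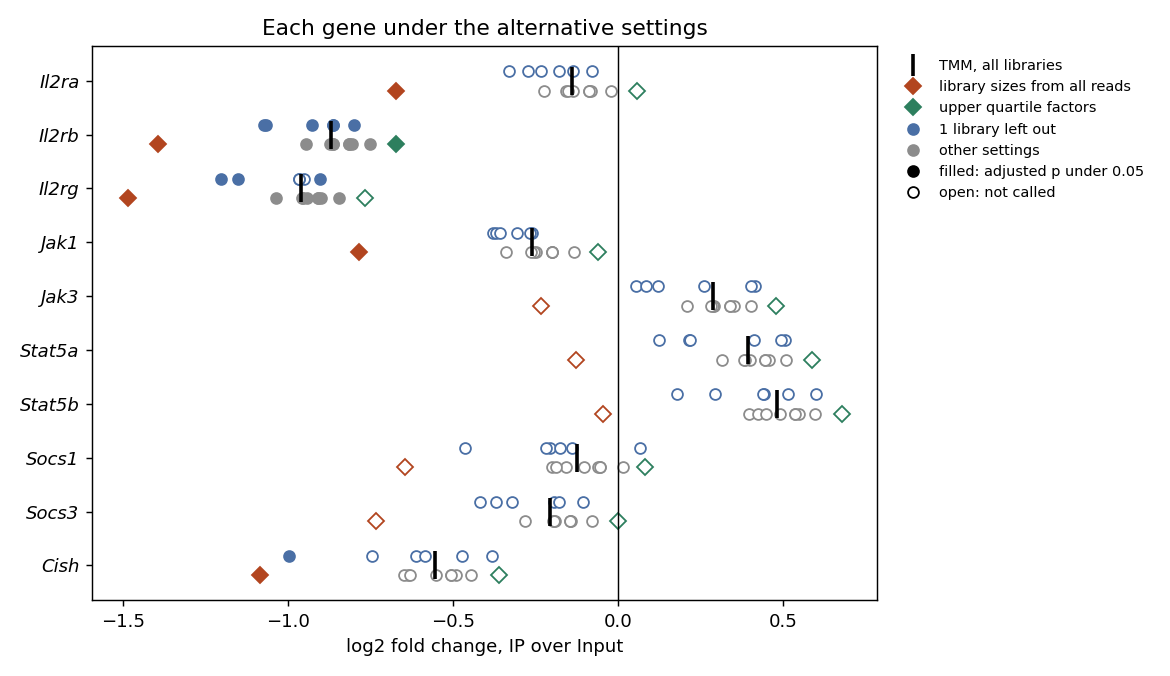
Log2 fold change of YTHDF2 IP over Input (x axis) of each gene with TMM factors and all libraries (black bar) and under 16 alternatives, filled where the adjusted p was under 0.05. Il2rb and Il2rg stay left of 0 throughout (-1.39 to -0.67 and -1.49 to -0.77), and Jak3, Stat5a and Stat5b lie right of 0 except with library sizes from all reads (-0.23, -0.13 and -0.04).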

How the data were processed

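The deposited values are raw read counts per Ensembl gene, 1 file per library, made by the authors; per the submitters' processing notes, the tools were Trimmomatic 0.39, HISAT2 2.1.0, HTSeq and DESeq2 with build mm10, with no role or order. No label or header used here gives the HTSeq version, annotation release or strand setting, so the counts rest on the intended strand having been used. Rows for 92 spike-ins and 5 summary categories were left out of library sizes. Counts were fitted across all genes with edgeR 4.0.16 in R 4.3.3 (filterByExpr, TMM, robust quasi-likelihood F-test, group as the only term, two-sided) and adjusted by Benjamini-Hochberg. Standard errors come from the F statistics and 95% intervals from their degrees of freedom; CPM were computed here. The fit was tested on simulated data, in which changes of 2-fold were not called, so a gene that was not called may still differ. The simulation does not set the smallest change that can be called here. In the real data Il2rb and Il2rg were called at levels 1.83-fold and 1.95-fold lower in the IP. Pair ratios used counts plus 0.5. Alternatives were other size factors, count filters, DESeq2 1.42.0, limma 3.58.1 voom, a replicate block and each library left out.

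The members and lists were chosen with earlier results of these data known. All 10 genes are named; no other gene was selected. The pathway and cell marker lists were not tested, because 0 identifiers other than those of the 10 genes could be tied to symbols. Gene spans and promoter windows were matched by symbol to RefSeq. No 2 replicates were repeats of 1 library: the chi-square per degree of freedom within a group was at least 16.1. Intervals cover the spread between libraries, and the Poisson error covers counting only.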

Additional observations from a re-analysis of the deposited data

Results flagged for a closer look

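Reads in no annotated feature, which lie outside the gene counts, averaged 71.7% of all reads in the IP and 50.4% in the Input, with no overlap between the groups. A change of library size from reads on the tested genes to all reads passes this difference on to each of the 10 genes. The source of the difference was not tested.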

How the results depend on the processing

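Of the 160 values of single genes over the 16 alternatives, 143 kept their direction and their side of the threshold, 5 lost a call (Il2rb once, Il2rg 4 times), 4 gained one (Il2ra, Jak1 and Cish with library sizes from all reads, Cish without IP replicate 2) and 8 reversed. Those 8 were all of genes that were not called: with upper quartile factors, Il2ra at 0.06, Socs1 at 0.084 and Socs3 at 0.000708; with total counts, Socs1 at 0.014; with library sizes from all reads, Jak3 at -0.23, Stat5a at -0.13 and Stat5b at -0.045; and without IP replicate 2, Socs1 at 0.067, which ranged from -0.46 to 0.067 with 1 library left out. Among the 10, 1 gene was depleted with upper quartile factors and 5 when all reads set the library size, against 2, and 0 to 3 with 1 library left out: 0 without IP replicate 1, where the adjusted p of Il2rb was 0.0578 and of Il2rg 0.0778, and 3 without IP replicate 2, where Cish was added. Pairs whose ratios did not overlap numbered 1 with 5 added to each count, against 2, since Il2ra to Il2rg nearly touches, and 2 to 4 with 1 library left out. Over all genes, enriched genes numbered 1081 with upper quartile factors, 160 with all reads, 1030 with at least 1 CPM in all libraries and 1259 with DESeq2, against 676. Depleted genes numbered 1958 with all reads, 1551 with DESeq2 and 1715 with limma voom, against 954. Leaving out 1 library gave 188 to 999 enriched and 563 to 1661 depleted genes. The enriched share of all calls was 41.5% (TMM), 57.4% (upper quartile), 51.8% (total counts) and 7.55% (all reads). For these differences the cause was not tested; leaving out a library also leaves fewer samples. With a replicate block, Il2rb and Il2rg were again the 2 depleted genes, with adjusted p-values of 0.000204 and 0.00612, no gene was enriched, and Stat5b and Cish had adjusted p-values of 0.126 and 0.0761; over all genes it gave 833 enriched and 1095 depleted, and against its median of -0.50 Il2rb lay at -0.38, Il2rg at -0.46 and Il2ra at 0.34. The log2 difference within replicate numbers ran from 0.63 to 0.81 for Il2ra to Il2rb and from 0.71 to 0.98 for Il2ra to Il2rg. Replicate numbers were not treated as pairs in the main fit, and the labels do not say whether same-numbered libraries share a lysate. Deviations of same-numbered libraries correlated at 0.0999, 0.026 and 0.024 over all tested genes. Over the 2151 genes of at least 100 CPM they correlated at 0.437, 0.237 and 0.057. These values do not settle whether the numbers are pairs. Over all tested genes every library correlated best with its own number, but over the abundant genes IP replicate 3 did so with Input replicate 2 (0.124) and Input replicate 3 with IP replicate 2 (0.0988).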
